A study of Rattus rattus with 8 samples.

Results

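The apical face of an absorptive intestinal cell is folded into microvilli that together form the brush border. Genes of this structure were compared in the proximal colon epithelium of WKY and SHR rats. They were chosen by symbol, 10 genes in all, each with 1 of the 11762 rows of the deposited table. Alpi and Dpp4 encode enzymes of the brush border membrane. The 8 structural genes are Vil1, Ezr, Myo1a, Espn, Cdhr2, Cdhr5, Ush1c and Tmigd1.

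SHR, the spontaneously hypertensive rat, is an inbred strain that develops high blood pressure, and WKY, the Wistar-Kyoto rat, is its usual normotensive control. Epithelium was shaken off the tissue after incubation with DTT and EDTA, and poly(A) RNA was sequenced from a directional library. No treatment is named for either strain. There were 4 libraries per strain, and neither age nor sex is given in the sources used here. Whether the libraries of a strain came from separate animals is not in the labels, and the p-values thus rest on a spread between libraries that may be technical. Values are FPKM, fragments scaled by gene length and by library total, a unit inferred from the deposited values because no header names it. Read depth is unknown.

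Each microvillus is held up by a core of parallel actin filaments. Bundling proteins such as villin and espin tie the filaments together, while ezrin and myosin 1A bind the core to the plasma membrane around it. At the tips, the protocadherins CDHR2 and CDHR5 of neighbouring microvilli bind each other, and the scaffold harmonin, encoded by Ush1c, anchors them inside the cell. Enzymes such as intestinal alkaline phosphatase and dipeptidyl peptidase 4 sit on this enlarged surface, where they act on substrates in the lumen. Intestinal alkaline phosphatase is known chiefly from the small intestine, is held by a glycosylphosphatidylinositol anchor, and removes phosphate from bacterial lipopolysaccharide.

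Both enzyme genes were lower in SHR, and 7 of the 8 structural genes did not pass the test. The remaining structural gene, Tmigd1, was higher by a small margin that 1 library could undo. Each gene was tested with limma on log2(FPKM + 1), with Benjamini-Hochberg adjustment over 11069 genes that reached 1 FPKM in at least 4 libraries. All 10 genes passed this filter, Alpi only through its WKY libraries. Across all tested genes 3.4% were called higher in SHR and 7.48% lower at an adjusted p under 0.05, which is 376 and 828 genes, or 642 and 644 after quantile normalization. The single call among 8 structural genes is close to the share of 10.9% called in either direction. An unadjusted limma p under 0.05 was reached by 3037 of the 11069 tested genes. These shares and this count are the background for the lists below.

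Alpi (ENSRNOG00000030020) encodes intestinal alkaline phosphatase. Its values were 8.35, 9.04, 19.31 and 15.68 FPKM in WKY replicates 1 to 4, with a mean of 13.1 ± 5.30 FPKM (SD, n = 4). In SHR replicates 1 to 4 it was listed at 0, 0.02, 0 and 0 FPKM. All WKY libraries thus held a modest level and all SHR libraries were at or next to 0. Having entered the test only through its WKY libraries, Alpi had to differ in it, so the limma call (adjusted p = 4.00e-07) adds nothing to the values listed. Its log2 fold change of -3.73 ± 0.22 (SE) is set by the pseudocount, being -6.89 with a pseudocount of 0.1 and -1.81 with 5, and no fold is given. In the authors' deposited table its mean was 26.1 CPM in WKY and 0.00969 CPM in SHR. Myh9, a myosin gene of nearly every cell, is listed at 0 in WKY replicates 1, 2 and 4 and in SHR replicate 3. In its other libraries, of both strains, Myh9 was at 0.65 to 1.82 FPKM. Whether a listed 0 of either gene is a failed estimate was not tested.

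Other alkaline phosphatase genes were not analysed here, since 0 of the 6 further family symbols looked for had a row. With cut-offs taken from Alpi's own values, only 1 other tested gene shared its pattern of at least 1 FPKM in every WKY library and at most 0.02 FPKM in every SHR library. It carries the name Rn60_20_0047.3. The named genes with the smallest distance from Alpi's profile over the 8 libraries were Acsbg1, RT1-CE9-ps1 and RT1-CE16, at root mean square distances of 0.267, 0.37 and 0.45 on the log2 scale. Like Alpi's fold change, these distances depend on the pseudocount, and no other pseudocount was tried for them. Acsbg1, an acyl-CoA synthetase gene, lay between 21.3 and 66.7 FPKM in WKY and between 1.52 and 2.42 FPKM in SHR, so unlike Alpi it remained measurable in SHR.

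Markers of the small intestine were examined beside Alpi. Of 15 such symbols 9 had a row, and neither Sis nor Lct, the sucrase and lactase genes, was among them. Their summed level overlapped between the strains, at 45.4 to 171.1 FPKM in WKY and 76.8 to 128.3 FPKM in SHR, with WKY replicate 3 highest. None of the 9 was at 0 in all libraries. Of 8 that were tested 1 rose and 0 fell by limma, with 2 higher and 0 lower at an unadjusted p under 0.05, and the authors' deposited q-values gave 2 higher and 0 lower. The gene that rose was Slc10a2, the bile acid importer, with a WKY mean of 0.378 ± 0.319 FPKM and an SHR mean of 3.16 ± 2.07 FPKM (adjusted p = 0.0177). Slc10a2 entered the test only through its SHR libraries and could only come out higher, so its call adds nothing to these values. That call ended in 3 of 8 fits without a library, namely WKY replicate 1 or 4 or SHR replicate 2, and with a pseudocount of 5. Single markers also exceeded the WKY range in SHR, among them Slc10a2 in all 4 SHR libraries. The part of tissue sampling in the Alpi result was not tested.

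Dpp4 (ENSRNOG00000030763) encodes a membrane peptidase that trims dipeptides from peptides, among them the incretin hormones. It was at 6.33, 8.43, 11.15 and 8.83 FPKM in WKY replicates 1 to 4 and at 3.46, 4.73, 5.23 and 4.9 FPKM in SHR replicates 1 to 4. The highest SHR library lay below the lowest WKY library. It fell by 0.78 ± 0.16 on the log2 scale, with a 95% interval of -1.14 to -0.43 (limma adjusted p = 0.00929). The means were 8.69 ± 1.98 FPKM in WKY and 4.58 ± 0.775 FPKM in SHR. The WKY mean was 1.90 times the SHR mean. The call held under each alternative tried, with adjusted p between 0.0049 and 0.0327 when 1 library was left out. All 4 SHR values lay below all 4 WKY values for 10.8% of tested genes, among them both enzyme genes.

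**Figure D1:**
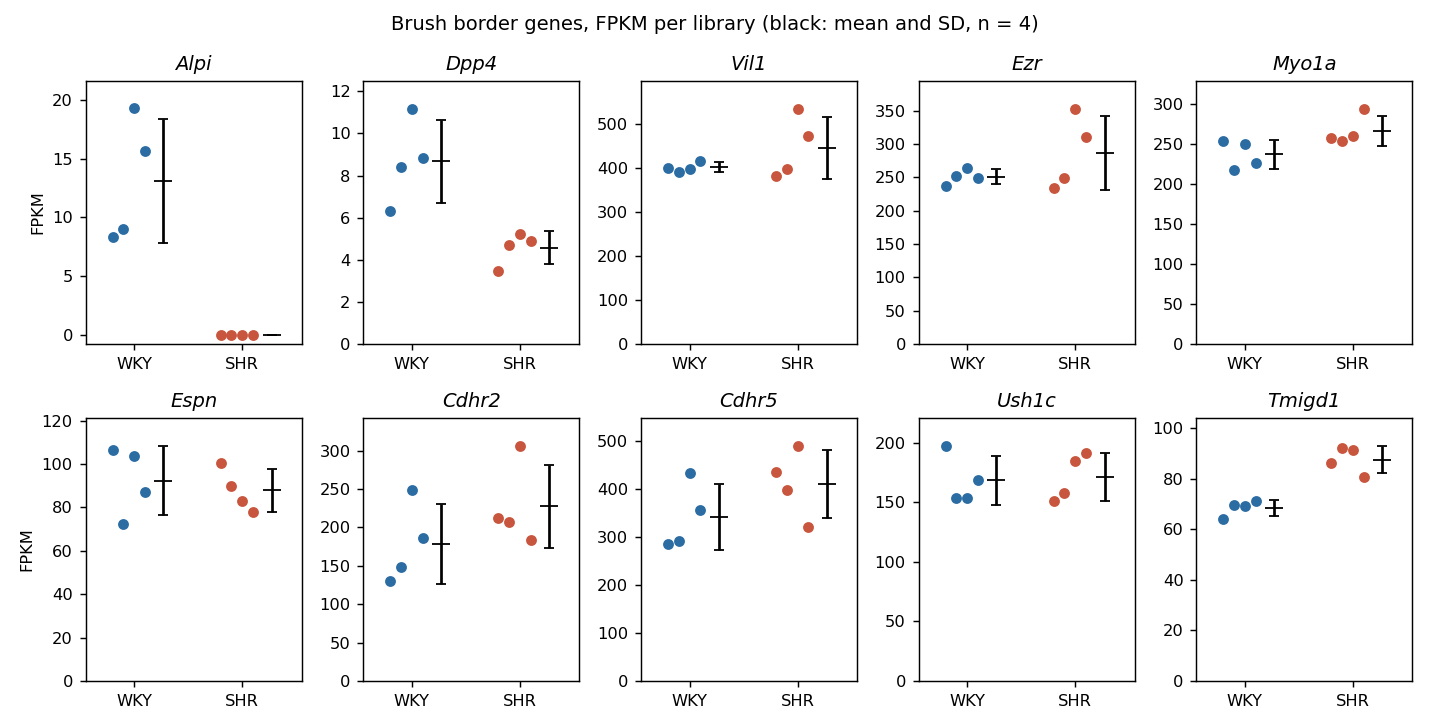
FPKM of the 10 brush border genes in each library, with WKY in blue and SHR in red in replicate order, and the mean and SD of 4 libraries in black. Alpi is at or next to 0 in all SHR libraries, the SHR values of Dpp4 all lie below those of WKY, those of Tmigd1 all lie above, and the strains overlap for the other 7 genes.

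DPP4 is also a surface protein of T lymphocytes, where it is called CD26, and lymphocytes can stay in a preparation of epithelium. In bulk RNA fewer cells of a type and less RNA per cell cannot be told apart. Among 14 marker symbols for T and natural killer cells 9 had a row. Of these 6 fell (Gzmb, Nkg7, Gzma, Ptprc, Cd3g and Il2rb) and 0 rose by limma (0 higher and 9 lower at an unadjusted p under 0.05, and 0 and 9 by the authors' deposited q-values). Over all tested genes 7.48% were called lower by limma. Nkg7 entered the test only through its WKY libraries, so it could only come out lower. The summed level of the 9 markers was 51.4 to 218.7 FPKM in WKY and 19.2 to 41.7 FPKM in SHR, without overlap. None of the 9 was at 0 in all libraries. Replicate 3 was highest in each strain for this sum, at 218.7 and 41.7 FPKM, and for Dpp4. WKY replicate 4 was second in WKY for both, while WKY replicate 1 was lowest for Dpp4 and WKY replicate 2 for the sum. In SHR, replicate 4 was lowest for the sum, at 19.2 FPKM, but second for Dpp4, at 4.9 FPKM. SHR replicate 1 was lowest for Dpp4, at 3.46 FPKM. The part of lymphocytes in the difference in Dpp4 was not tested.

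The named genes closest to Dpp4 in profile were Gcnt1, Lysmd2 and Rassf5, at distances of 0.116, 0.117 and 0.13 on the log2 scale over the 8 libraries. Gcnt1, a glycosyltransferase gene, was at 2.08 ± 0.584 FPKM in WKY, against 1.02 ± 0.257 FPKM in SHR. Rassf5, known for its part in lymphocyte adhesion, was at 2.10 ± 0.675 and 0.85 ± 0.245 FPKM. The distance was computed over 10219 tested genes with a gene symbol.

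A list of dipeptidyl peptidases and similar enzymes, not limited to close relatives of Dpp4, held no called gene. Of 5 tested genes 0 rose and 0 fell by limma, none had an unadjusted p under 0.05, and the authors' deposited q-values gave 0 calls as well. Their median log2 fold change was -0.0032, beside -0.07 over all tested genes. Dpp3, a cytosolic peptidase and the most abundant of them, was at 51.6 ± 2.83 FPKM in WKY, against 51.5 ± 3.41 FPKM in SHR.

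The genes beside Dpp4 were taken from the order of coding genes in the black rat assembly Rrattus_CSIRO_v1, the species in the labels but not that of the table's gene identifiers, which are of the brown rat. That assembly holds 9 of the 10 brush border genes by symbol but not Alpi. The gene order of the brown rat was not looked at, so the neighbours below may not be those in the genome behind the identifiers. Of the 3 neighbours on either side, Psmd14, Gcg and Ifih1 had a row, while Tbr1, Slc4a10 and Fap were not analysed here. Gcg encodes proglucagon, whose product GLP-1 is cleaved by DPP4. It was at 45.6 ± 2.23 FPKM in WKY, against 35.5 ± 8.59 FPKM in SHR and did not pass (adjusted p = 0.137), although the strains did not overlap. Psmd14, a proteasome subunit gene, was at 57.6 ± 10.2 and 45.7 ± 6.13 FPKM (adjusted p = 0.165). Ifih1, which encodes a sensor of viral RNA, rose from 7.95 ± 1.75 to 13.0 ± 3.29 FPKM (adjusted p = 0.049), with overlapping strains. Of the neighbours with a row 1 was thus called, and Psmd14 and Gcg did not pass.

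The structural genes stood far above the enzymes in level. Vil1, which encodes the actin bundler villin, averaged 424 FPKM over all libraries, rank 278 of 11762 rows, and Tmigd1 was lowest of the 8 at 78.1 FPKM, rank 1301. Dpp4 and Alpi averaged 6.63 and 6.55 FPKM, ranks 7649 and 7682. By mean level the order in WKY was Vil1, Cdhr5, Ezr, Myo1a, Cdhr2, Ush1c, Espn, Tmigd1, Alpi and Dpp4. Most neighbours in this order overlapped, but Cdhr5 stood clear of Ezr, Ush1c of Espn, Espn of Tmigd1, and Tmigd1 of Alpi. The order in SHR was the same down to Tmigd1, whose range there met that of Espn. At the bottom Alpi and Dpp4 changed places, since Alpi exceeded Dpp4 in 4 of 4 WKY libraries, at 1.07 to 1.78 times its FPKM, and was next to absent in SHR.

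Vil1 (ENSRNOG00000015408) was at 400.88, 390.23, 397.94 and 416.92 FPKM in WKY replicates 1 to 4 and at 381.19, 397.58, 533.43 and 472.21 FPKM in SHR replicates 1 to 4. SHR replicates 3 and 4 lay above all WKY libraries and SHR replicates 1 and 2 did not. The means were 401 ± 11.2 and 446 ± 70.4 FPKM, a log2 fold change of 0.14 ± 0.12 with a 95% interval of -0.13 to 0.41 (limma adjusted p = 0.493). Espn (ENSRNOG00000010270), whose product espin also bundles actin, was at 106.25, 72.09, 103.86 and 87.24 FPKM in WKY, against 100.64, 89.8, 82.81 and 78.05 FPKM in SHR. These ranges overlapped almost fully (log2 fold change -0.06 ± 0.14, interval -0.36 to 0.24, adjusted p = 0.812). The sign for Espn turned to 0.09 when a trend with gene length was removed and to 0.01 without WKY replicate 1, with no call in either case.

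The link from core to membrane was followed through Ezr and Myo1a. Ezr (ENSRNOG00000018524) encodes ezrin, which ties membrane proteins to actin. It was at 236.57, 251.69, 263.96 and 249.69 FPKM in WKY, against 234.13, 248.26, 351.96 and 310.85 FPKM in SHR, the same split as for Vil1, with SHR replicates 3 and 4 above the rest. Its log2 fold change was 0.17 ± 0.13 (interval -0.12 to 0.47, adjusted p = 0.429). Myo1a (ENSRNOG00000004177), the motor that bridges core and membrane, was at 254.3, 218.4, 250.19 and 226.03 FPKM in WKY, against 257.37, 253.65, 260.24 and 293.8 FPKM in SHR. An SHR library exceeded a WKY library in 15 of 16 pairings, yet the log2 fold change of 0.17 ± 0.11 did not pass (interval -0.06 to 0.39, adjusted p = 0.326). The ratio of Vil1 to Ezr stayed between 1.51 and 1.70 in all 8 libraries.

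Cdhr2 and Cdhr5 encode the protocadherins that link microvillus tips. Cdhr2 (ENSRNOG00000017917) was at 130.12, 147.73, 248.59 and 186.38 FPKM in WKY, against 211.76, 207.14, 306.07 and 183.98 FPKM in SHR. Cdhr5 (ENSRNOG00000017762) was at 286.35, 290.9, 432.82 and 355.6 FPKM in WKY, against 436.46, 397.94, 490.19 and 321.87 FPKM in SHR. Replicate 3 was highest in both strains for both genes, and the strains overlapped. The log2 fold changes were 0.37 ± 0.21 for Cdhr2 (interval -0.08 to 0.82, adjusted p = 0.272) and 0.27 ± 0.16 for Cdhr5 (interval -0.08 to 0.63, adjusted p = 0.297). Cdhr5 exceeded Cdhr2 in every library, and the ratio lay between 1.602 and 2.201 throughout.

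Ush1c (ENSRNOG00000021149), the harmonin gene, was at 197.43, 153.72, 154.01 and 168.95 FPKM in WKY, against 151, 157.78, 185.01 and 191.66 FPKM in SHR. Its strains overlapped, with a log2 fold change of 0.02 ± 0.12 (interval -0.24 to 0.29, adjusted p = 0.919). Its sign turned negative without WKY replicate 2 or 3 or SHR replicate 3 or 4, with no call. Further parts of the tip-link complex, chosen for their known binding to the members and not by the rule for named genes, were likewise not called. The scaffold gene Anks4b was at 121 ± 8.03 and 131 ± 17.7 FPKM in WKY and SHR (adjusted p = 0.635). The motor gene Myo7b was at 78.4 ± 6.77 and 92.9 ± 14.3 FPKM (adjusted p = 0.255), and Calml4, a light chain gene, at 439.6 ± 52.1 and 426 ± 31.6 FPKM (adjusted p = 0.851).

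Tmigd1 (ENSRNOG00000003865) encodes an immunoglobulin-domain adhesion protein of the apical membrane. It was at 64.08, 69.62, 69.32 and 71.14 FPKM in WKY, against 86.28, 92.38, 91.28 and 80.62 FPKM in SHR. All SHR libraries lay above all WKY libraries, as for 5.28% of tested genes. It rose by 0.35 ± 0.10 on the log2 scale, with an interval of 0.14 to 0.56 (limma adjusted p = 0.0395). The means were 68.5 ± 3.08 and 87.6 ± 5.38 FPKM. The call ended in 6 of 8 fits without a library (adjusted p up to 0.126, without WKY replicate 1), with the replicate number as a block (0.07) and with a length trend removed (0.0641), while its sign held. The nearest named profiles were those of Lrrc8d, Rnf25 and Slc2a9, at distances of 0.0342, 0.0502 and 0.0631.

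**Figure D2:**
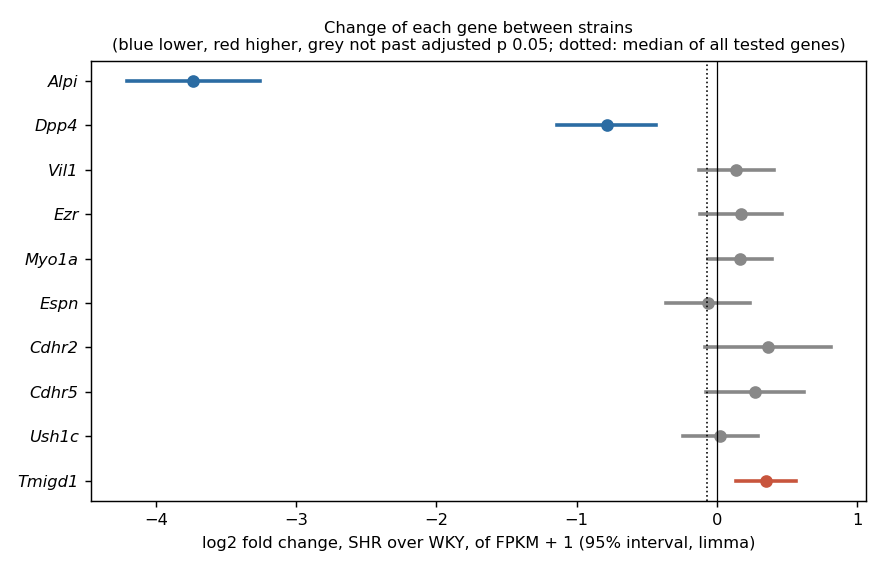
Log2 fold change of FPKM + 1, SHR over WKY, with limma's 95% interval for each of the 10 genes, and the median of all tested genes (-0.07) as a dotted line. Alpi and Dpp4 lie left of 0, Tmigd1 lies right of it, and the intervals of the other 7 genes include 0.

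As a group, the 8 structural genes had 1 call higher and 0 lower by limma, and the same counts at an unadjusted p under 0.05. Over all tested genes, 3037 of 11069 had an unadjusted p under 0.05. The authors' deposited q-values also gave 1 higher and 0 lower here and 2 lower among the enzymes, with 5.74% higher and 9.59% lower over all rows of the authors' deposited table. The median log2 fold change of the structural genes was 0.17, with 7 of 8 positive. Over all tested genes the median was -0.07, with 4330 of 11069 positive. The structural median was 0.34 after quantile normalization and 0.21 with the length trend removed. The median over all tested genes moved as well, to 0.0045 and 0.0017. Among the 1301 tested genes at or above the level of Tmigd1, 2.92% were higher and 7.07% lower, with a median of -0.13. The summed FPKM of the structural genes was 1594 to 1921 in WKY and 1845 to 2301 in SHR, with overlapping ranges. The 7 intervals that include 0 had upper ends between 0.24 and 0.82.

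To ask whether enzymes and structure differed within the same libraries, the log2 level of each structural gene was subtracted from that of Dpp4 in every library. Against Vil1 this difference was -5.78, -5.37, -5.04 and -5.41 in WKY replicates 1 to 4 and -6.42, -6.12, -6.42 and -6.33 in SHR replicates 1 to 4. The 2 strains did not overlap, and Dpp4 was lower relative to Vil1 in SHR by 0.92 on the log2 scale. In plain ratios Vil1 stood at 35.7 to 63.3 times the FPKM of Dpp4 in WKY and at 84.0 to 110.2 times in SHR. The difference passed for 7 of 8 structural genes, each with an exact two-sided permutation p of 0.0286, the smallest that 4 against 4 libraries allow, and 0.0327 after adjustment over the 8. Its shift ran from -0.72 for Espn to -1.15 for Cdhr2. Espn was the exception, with an exact permutation p of 0.0857, because WKY replicate 1 lay among the SHR values.

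The same subtraction for Alpi separated the strains for 8 of 8 structural genes. With Alpi at or next to 0 in SHR this separation restates its own values, and no test is given for it. Against Vil1 the difference was -4.91 ± 0.533 in WKY and -8.78 ± 0.231 in SHR. The size of this shift again depends on the pseudocount. The genes were chosen with their levels in these libraries known, and the 8 differences share the same enzyme values, so they are not independent of one another.

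**Figure D3:**
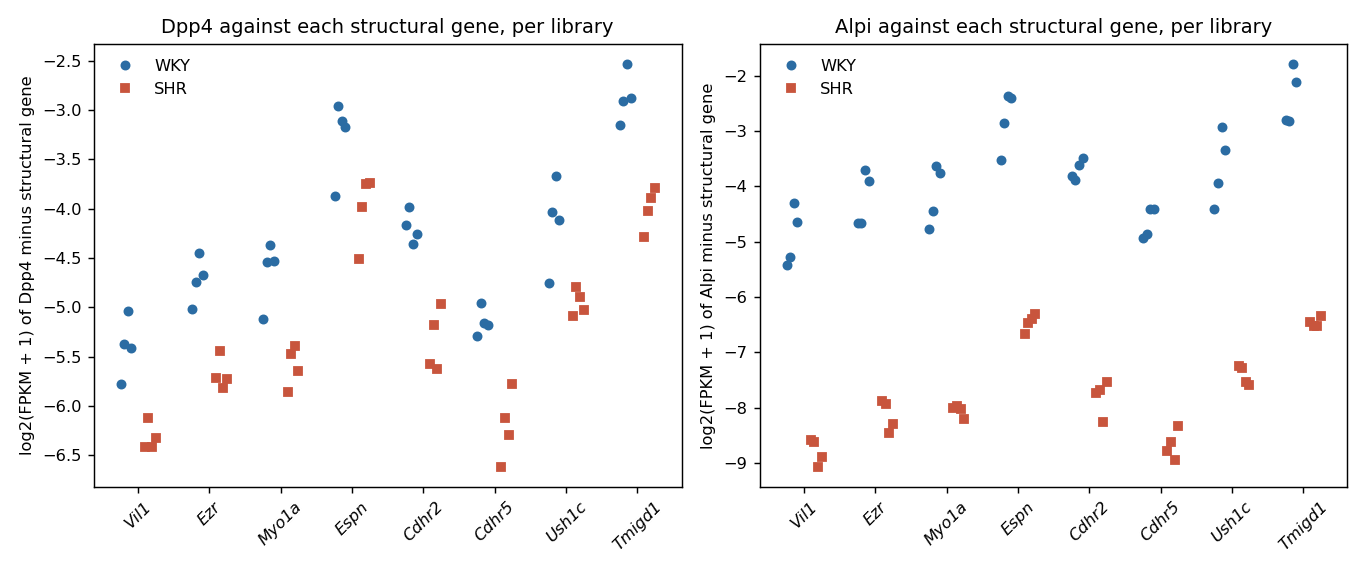
Log2(FPKM + 1) of Dpp4 (left) and Alpi (right) minus that of each structural gene, 1 point per library, with WKY as blue circles and SHR as red squares. SHR points lie below all WKY points for each gene except Espn in the Dpp4 panel, where WKY replicate 1 falls among them.

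Within the strains the genes did not vary alike. Vil1 and Ezr were steady in WKY, with coefficients of variation of 2.80% and 4.48%, and less so in SHR, at 15.8% and 19.2%. Alpi had the widest spread of the 10 in WKY, at 40.5%, followed by Cdhr2 at 29.4% and Dpp4 at 22.7%. Alpi, Dpp4, Cdhr2 and Cdhr5 ranked the 4 WKY libraries alike, from replicate 1 through 2 and 4 up to replicate 3, an order found in 4.77% of tested genes. WKY replicate 3 was also highest for the summed markers of T and natural killer cells and of small intestine, at 218.7 and 171.1 FPKM. Of the latter sum, Apoa1 alone made up 122.05 FPKM. In SHR Vil1, Ezr and Dpp4 shared the order 1, 2, 4, 3, found in 4.08% of tested genes, and Cdhr2 and Cdhr5 shared another, 4, 2, 1, 3 (2.98%). In SHR Espn was highest in replicate 1 and lowest in replicate 4, the reverse of the order of Ush1c.

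**Figure D4:**
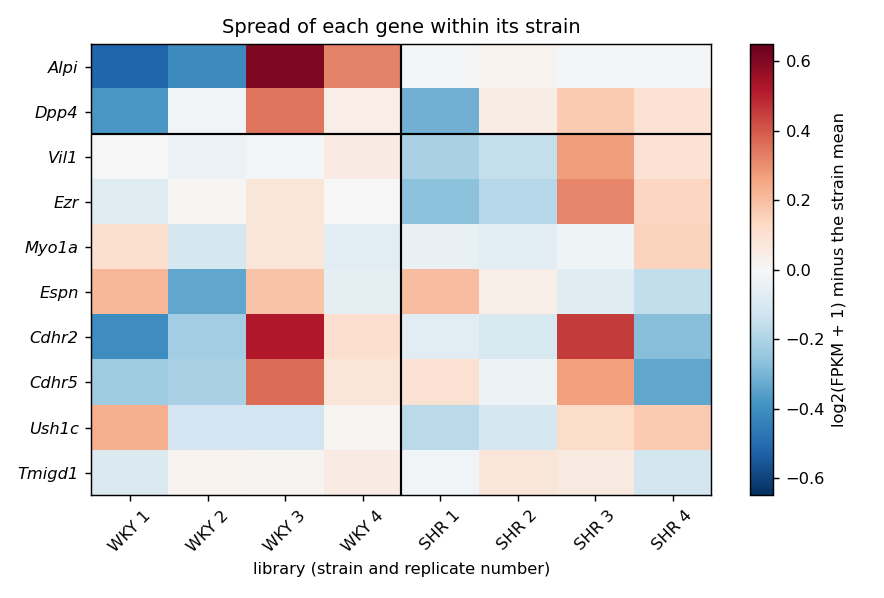
Deviation of each gene's log2(FPKM + 1) from its strain mean, with libraries in columns, genes in rows, red above and blue below the mean, and lines between strains and between enzymes and structural genes. Alpi, Dpp4, Cdhr2 and Cdhr5 are lowest in WKY replicate 1 and highest in WKY replicate 3, and Vil1 and Ezr are highest in SHR replicate 3.

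Among other apical hydrolases, of 20 symbols 14 had a row and 12 were tested, of which 2 rose, 1 fell and 9 missed the threshold. Over all tested genes 3.4% were called higher and 7.48% lower. The median log2 fold change of the 12 hydrolase genes was 0.13. Mep1b, which encodes the membrane protease meprin beta, was at 113.92, 129.94, 104.6 and 98.89 FPKM in WKY, against 205.62, 179.66, 231.49 and 202.94 FPKM in SHR. Every SHR value exceeded every WKY value, and Mep1b rose by 0.87 ± 0.12 on the log2 scale (limma adjusted p = 0.000673). Ace, the angiotensin-converting enzyme gene, rose by 2.10 ± 0.25 on the log2 scale. Enpp3, a nucleotide pyrophosphatase gene, fell from 1.34 ± 0.195 to 0.705 ± 0.236 FPKM (adjusted p = 0.0351, a call that ended after quantile normalization and in 6 of the 8 fits that leave 1 library out). Anpep, the aminopeptidase N gene, was under the filter at 0.388 ± 0.133 and 0.45 ± 0.293 FPKM.

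Beyond the members, 5 lists of microvillus and terminal web genes held 49 tested symbols, of which 4 rose, 4 fell and 41 did not pass. That is 16.3%, where 10.9% of all tested genes were called in either direction, and the median log2 fold change of the 49 was 0.08. The calls include Stk26, which could only come out lower. They also include Twf1, Myo1c and Cdhr1, whose calls ended in some fits without a library, as given below. Among regulators of actin bundles and their tips 2 of 14 rose and 0 fell by limma (3 higher and 2 lower at an unadjusted p under 0.05, 2 and 1 by the authors' deposited q-values). Baiap2l2, a membrane-curving protein of actin protrusions, rose by 0.73 ± 0.14 on the log2 scale (adjusted p = 0.00596). Twf1, the actin-binding twinfilin 1, rose from 95.2 ± 20.6 to 155 ± 32.6 FPKM (adjusted p = 0.0218), a call that ended without WKY replicate 4, without SHR replicate 3 and with the replicate block. The bundler gene Pls1, named for its place beside villin in the core, was at 184 ± 29.0 and 205 ± 27.2 FPKM and was not called (adjusted p = 0.47).

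Of 10 tested genes linking membrane to actin 1 rose and 2 fell. Stk26, a kinase gene whose human product can phosphorylate ezrin, was at 1.76, 2.2, 2.55 and 1.96 FPKM in WKY, against 0.47, 0.62, 0.59 and 0.78 FPKM in SHR, without overlap. It fell by 0.95 ± 0.12 on the log2 scale (limma adjusted p = 0.00036). Stk26 entered the test only through its WKY libraries, so it could only come out lower. Its call thus adds nothing to the values listed. Slc9a3r2, a scaffold that binds ezrin, fell from 4.38 ± 0.638 to 2.15 ± 0.465 FPKM (adjusted p = 0.00402). Its more abundant relative Slc9a3r1 was at 148 ± 24.2 and 159 ± 37.1 FPKM and was not called (adjusted p = 0.733). Plekhg6 rose from 12.7 ± 4.00 to 24.2 ± 5.81 FPKM (adjusted p = 0.0155).

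In the remaining lists calls were few and mostly unstable. Of 8 tested myosin and calmodulin genes of the brush border 0 rose and 1 fell by limma (1 and 1 at an unadjusted p under 0.05, 0 and 1 by the authors' deposited q-values). That gene was Myo1c, a relative of Myo1a, at 12.6 ± 0.804 and 8.81 ± 1.40 FPKM (adjusted p = 0.0305), and its call ended in 5 of the 8 such fits. Of 5 tested partners of tip-link adhesion 1 rose, Cdhr1, a protocadherin gene known from photoreceptors, at 7.55 ± 0.935 and 10.2 ± 0.549 FPKM (adjusted p = 0.0449), whose call ended in 7 of them and with the replicate block. In the terminal web 0 of 13 rose and 1 fell by limma (1 and 2 unadjusted, 1 and 1 by the authors' deposited q-values). It was the keratin gene Krt18, from 154 ± 16.8 to 108 ± 7.14 FPKM (adjusted p = 0.0121). Of 11 genes of apical trafficking 0 were called in either direction (1 and 1 unadjusted, 0 and 0 by the authors' deposited q-values), and its most abundant member, the galectin gene Lgals4, was at 3389 ± 473.8 and 3285 ± 79.7 FPKM.

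**Figure D5:**
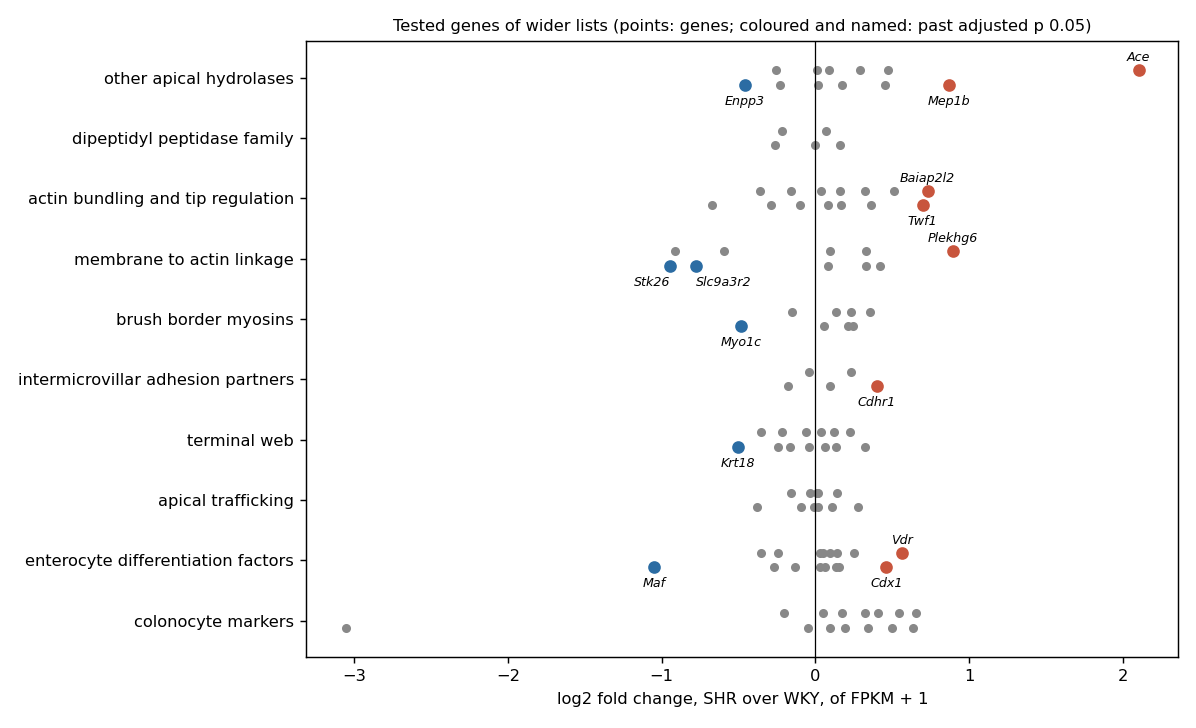
Log2 fold change of FPKM + 1, SHR over WKY, for the tested genes of 10 further lists, 1 point per gene, with genes past an adjusted p of 0.05 coloured by direction and named. Ace and Mep1b lie far to the right among the apical hydrolases, most genes of the structural lists lie close to 0, and the leftmost grey point is the colonocyte marker Aqp8, at -3.05, which did not pass.

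Factors and markers of the differentiated cell were compared in the same way. Of 16 transcription and signalling factors of enterocytes 2 rose and 1 fell, where 3.4% and 7.48% of all tested genes did. Maf, a leucine zipper factor, was lower in SHR, with means of 13.7 ± 3.69 and 6.17 ± 1.91 FPKM (adjusted p = 0.0087). Vdr, which encodes the nuclear receptor for vitamin D, rose by 0.57 ± 0.12 on the log2 scale (adjusted p = 0.00924). Cdx1, a homeobox factor of the intestine, rose by 0.46 ± 0.12 (adjusted p = 0.0303), a call that ended with the replicate block and when any of 5 libraries was left out. Of 14 colonocyte markers 0 rose and 0 fell by limma, with 4 higher and 1 lower both at an unadjusted p under 0.05 and by the authors' deposited q-values. Car1, the most abundant of them, was at 19971 ± 3741 and 20471 ± 1956 FPKM. Their summed level was 40670 to 48143 FPKM in WKY and 41012 to 52068 FPKM in SHR. Single markers separated the strains in opposite directions without being called. Aqp8 was at 8.68 to 95.41 FPKM in WKY, above its 0.31 to 5.88 FPKM in SHR. Car4 and Krt20 were higher in all SHR libraries than in any WKY library.

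The label of epithelium was checked against markers. The epithelial adhesion gene Epcam was at 1616 ± 46.6 FPKM in WKY, against 1585 ± 83.8 FPKM in SHR. Of 10 epithelial markers 0 rose and 1 fell (Krt18) by limma, with 0 and 2 unadjusted and 0 and 1 by the authors' deposited q-values. Of 7 endothelial symbols 0 had a row, and 5 stromal and muscle markers summed to 7.42 to 21.4 FPKM in WKY and 6.28 to 13.1 FPKM in SHR. Of the 4 tested stromal markers 1 rose and 0 fell by limma, with 1 higher and 1 lower both at an unadjusted p under 0.05 and by the authors' deposited q-values. Pdgfrb rose from 0.875 ± 0.192 to 2.05 ± 0.240 FPKM (adjusted p = 0.0029), while Vim missed the threshold (adjusted p = 0.102), with means of 10.9 ± 4.91 and 4.08 ± 2.09 FPKM. Of 3 tested myeloid markers 0 were called by limma, at an unadjusted p under 0.05 or by the authors' deposited q-values. Summed goblet cell markers were higher in WKY, at 3879 to 5323 FPKM against 2343 to 3181 FPKM, with 4 of 8 lower (Clca1, Fcgbp, Agr2 and Zg16) and 0 higher in SHR by limma (6 and 0 unadjusted, 5 and 0 by the authors' deposited q-values). For mitosis and S phase 10 of 15 were lower, led by Mcm2, Cdk1, Birc5, Aurka and Mcm3, and 0 higher (13 and 0 unadjusted, 12 and 0 by the authors' deposited q-values), with sums of 277.4 to 467 FPKM against 198 to 285 FPKM. Over all tested genes 3.4% were called higher and 7.48% lower by limma. The part of goblet and dividing cells in the differences above was not tested.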

How the data were processed

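The submitters' processing notes list FastQC, Trimmomatic and STAR. Their versions, the build, the annotation, the counter with its strand setting and the authors' test were not given in the sources used here, and reads of overlapping genes may have been mixed. The deposited table gives 1 value per gene and library, taken as FPKM. That unit was inferred, because value times a length per gene, computed from the authors' mean CPM, summed to nearly the same total in each library (982968 to 1017515). The authors also deposited mean CPM per strain, a log2 fold change and p-values with q-values, per the file headers. Further deposited tables repeat these rows and were not used.

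The 10 genes and all lists were chosen with earlier results of these data known. The test covered 11069 genes that reached 1 FPKM in 4 or more of the 8 libraries. It was run on log2(FPKM + 1) with limma 3.58.1 in R 4.3.3 (trend and robust settings, two-sided, Benjamini-Hochberg, threshold 0.05). The scale understates changes of low genes. Differences between an enzyme and a structural gene were tested by exact permutation of the 70 regroupings of libraries. Named were the 10 genes, up to 5 called genes per list (or the most abundant), the 3 nearest profiles of called members and neighbours of Dpp4. Slc9a3r1, Pls1, Anks4b, Myo7b, Calml4, Anpep, Myh9, Aqp8, Apoa1, Car4, Krt20, Epcam and Rn60_20_0047.3 were named outside this rule, with their values known. Names that are clone or locus identifiers were left out of the profile search. Where several rows shared a symbol, that of highest mean was used. The fit and the permutation test were tested on simulated data. The alternatives were other pseudocounts, filters, scalings and limma settings, a replicate block, leaving out each library, and the authors' q-values. FPKM sums were 882295 to 1066833 per library. Reads cannot be recovered, so no counting interval is given. No batch is given in the labels. Figures were drawn with matplotlib 3.10.9.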

Additional observations from a re-analysis of the deposited data

Results flagged for a closer look

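A library stood apart from the other 3 of its strain, by Dixon's criterion, in 4 of 50 groups examined (25 genes in each strain), and chance flags about 1 group in 20. Alpi in SHR replicate 2 was at 0.02 FPKM while the other SHR libraries were listed at 0. Beside such tied values any value above 0 is flagged, so the chance rate does not apply to Alpi. Myo1c in SHR replicate 1 was at 6.74 FPKM, below the 9.32 to 9.8 FPKM of the others. Vdr in WKY replicate 3 was at 109.88 FPKM, above 95.7 to 97.0 FPKM. Cdx1 in SHR replicate 4 was at 141.49 FPKM, below 178 to 187 FPKM and within the WKY range. The other groups examined, which covered the 10 brush border genes and the called genes of the pathway lists with Slc10a2, had no such library.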

How the results depend on the processing

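The call of Dpp4 held under all alternatives. Alpi was also called lower in each, making 2 members. With its SHR values at or next to 0, the call of Alpi adds no support. The count of members called higher, 1 (Tmigd1), was 0 with the length trend removed and 0 with the replicate block, and 0 to 1 without a library. Same-numbered libraries are not paired in the labels, and their deviations correlated at -0.29 to 0.463, with 2 of 8 libraries closest to their own number. Dpp4 differed from 7 structural genes and Alpi, whose near-absence in SHR fixes its count, from 8, and under the replicate block both counts were 0 by construction, since 4 pairs allow no exact p below 0.125. Without a library Dpp4 differed from 5 to 8. Over all genes, 376 were higher and 828 lower. Higher genes numbered 642 after quantile normalization and 675 by the authors' deposited q-values, and lower genes 500 with a mean of at least 5 FPKM, where fewer genes were tested. Without a library, 215 to 583 were higher and 499 to 1209 lower. Moves over 1.5 times came from leaving out WKY replicate 1 (249 higher), WKY replicate 4 (221 higher, 506 lower), SHR replicate 1 (583 higher), SHR replicate 2 (229 higher) and SHR replicate 3 (215 higher, 499 lower). No call changed its sign among the 25 genes for which alternatives were run, and other named calls were not recomputed. Low genes such as Dpp4, Stk26 and Enpp3 rest on an unknown number of reads.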
